A study of Homo sapiens with 12 samples.

Results

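Tryptophan as the last sense codon before a stop codon was followed in 2 libraries of nonsense-mediated mRNA decay (NMD) reporters in HEK293T cells, a human embryonic kidney cell line. A variant is defined by 10 bases: the penultimate codon (bases 1 to 3), the last codon (bases 4 to 6), a stop codon or TGG (bases 7 to 9) and the following base. Members have TGG, the codon for tryptophan, at bases 4 to 6, a stop codon at bases 7 to 9 and no stop codon at bases 1 to 3. Of the 732 such sequences that can be written, 478 are among the 51306 rows of the EJC-enhanced table and 358 among the 41955 rows of the EJC-independent table. The choice used sequence alone and no measured value.

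The cells carried either the EJC-enhanced or the EJC-independent reporter library, put into a single genomic location by Cre-Lox recombination. Each was treated for 24 hours with SMG1i, an inhibitor of the kinase SMG1, at 0.5 µM, or with DMSO, the vehicle. Each of these 4 groups has 3 replicate libraries, 12 in all, and the labels do not say whether replicates are separate cultures. Variants that carry TGG in place of the stop codon are the study's control without NMD. Where that location lies in the genome is not stated in the sources used here, and variants are placed only within the reporter, by their bases.

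NMD removes mRNAs on which a ribosome ends translation too early. SMG1 phosphorylates the helicase UPF1 in this pathway, so inhibiting SMG1 lets NMD targets accumulate, and an exon junction complex (EJC) left downstream of a stop codon strengthens the decay. When a stop codon enters the A site, the last codon lies in the neighbouring P site, where its tRNA still holds the finished peptide. Tryptophan has the largest side chain of the standard amino acids and shares its aromatic character with phenylalanine and tyrosine. It is read from a single codon, TGG, unlike phenylalanine (TTT and TTC) and tyrosine (TAT and TAC).

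The sequences that follow allow a comparison in which nothing but the last codon changes. They are the contexts whose tryptophan, phenylalanine, tyrosine and control variants were all well counted in both tables (for each stop codon, the context with the highest lowest mean count). They are written 5′ to 3′, with the last codon in capitals.
Tryptophan before TGA: cccTGGtgac
Phenylalanine TTT before TGA: cccTTTtgac
Phenylalanine TTC before TGA: cccTTCtgac
Tyrosine TAT before TGA: cccTATtgac
Tyrosine TAC before TGA: cccTACtgac
Tryptophan before TAA: ctcTGGtaac
Phenylalanine TTT before TAA: ctcTTTtaac
Phenylalanine TTC before TAA: ctcTTCtaac
Tyrosine TAT before TAA: ctcTATtaac
Tyrosine TAC before TAA: ctcTACtaac
Tryptophan before TAG: cccTGGtagc
Phenylalanine TTT before TAG: cccTTTtagc
Phenylalanine TTC before TAG: cccTTCtagc
Tyrosine TAT before TAG: cccTATtagc
Tyrosine TAC before TAG: cccTACtagc
Control of the TGA and TAG contexts: cccTGGtggc
Control of the TAA context: ctcTGGtggc

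The response is RNA under SMG1i over RNA under DMSO on the log2 scale, so a positive value is read as more RNA with NMD inhibited. It is the authors' deposited log2 fold change with its sign reversed, because the tables do not name the numerator. As deposited, controls centred at 0 and stop variants were negative. The direction of the response is thus an assumption, while the sizes of the values and of their differences do not rest on it. The proline context with TGA, cccTGGtgac, had a response of 1.62 (SE 0.58) in the EJC-enhanced table. Its phenylalanine versions had 2.37 (SE 0.28) with TTT and 2.34 (SE 0.28) with TTC, and its tyrosine versions 2.08 (SE 0.32) with TAT and 2.68 (SE 0.28) with TAC. Tryptophan was the lowest of the 5 in that context, with the largest SE. The same sequence responded by 1.77 (SE 0.11) in the EJC-independent table. There TTT gave 1.49 (SE 0.09), TTC 1.65 (SE 0.05), TAT 1.59 (SE 0.12) and TAC 1.66 (SE 0.08), so tryptophan was the highest.

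In the leucine context with TAA, ctcTGGtaac responded by 2.10 (SE 0.35) in the EJC-enhanced table, and the aromatic versions by 2.09 with TTT, 2.32 with TTC, 2.42 with TAT and 2.39 with TAC. The EJC-independent value was 1.29 (SE 0.21), below the 1.71 of TTT, 1.41 of TTC, 1.41 of TAT and 1.37 of TAC. The TAG context cccTGGtagc had 2.05 (SE 0.55) in the EJC-enhanced table, below 2.49 with TTT, 2.19 with TTC, 2.64 with TAT and 2.32 with TAC. For the EJC-independent reporter it had 1.38 (SE 0.09), beside 1.40 with TTT, 1.52 with TTC, 1.44 with TAT and 1.46 with TAC. Of these 3 contexts, the TGA context put tryptophan above all 4 other aromatic codons, in the EJC-independent table and not in the EJC-enhanced one. The TAA and TAG contexts put tryptophan below all 4 in the EJC-independent table. The controls were near 0: cccTGGtggc had -0.01 (SE 0.27) in the EJC-enhanced and -0.10 (SE 0.12) in the EJC-independent table, and ctcTGGtggc had 0.13 (SE 0.28) in the EJC-enhanced and -0.04 (SE 0.16) in the EJC-independent table.

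Tryptophan variants were rarer and shallower than the average of the other last codons, though not the most so: 15 other last codons had fewer listed variants in the EJC-enhanced and 16 in the EJC-independent table. A lower median count was found for 14 last codons in the EJC-enhanced and 9 in the EJC-independent table. Of the possible members, 65.3% were listed in the EJC-enhanced table, against 77.7% of the stop variants with other last codons. The shares in the EJC-independent table were 48.9% and 65.4%. All 478 EJC-enhanced members and 356 of the 358 EJC-independent members reached the mean normalized count of 10 that was required. Their median count was 79.4 in the EJC-enhanced table, against 145 for the other stop variants, and 109 in the EJC-independent table, against 248. Single members are imprecise: the median SE of a member's response was 0.69 in the EJC-enhanced and 0.48 in the EJC-independent table. Over all stop variants it was 0.56 and 0.33. A high count did not always come with a small SE. In the EJC-enhanced table the 3 members with a mean count of 1000 or more had a median SE of 1.24. Other stop variants at that depth had 0.31. Depth per library is unknown from these tables.

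Members with a significant difference between SMG1i and DMSO all differed in the same direction, which the sign taken here reads as more RNA under SMG1i. In the authors' deposited table of EJC-enhanced variants, 361 of 478 members (75.5%) had a fold change below 0 as deposited, here a positive response, at an adjusted p below 0.05. None had a negative response at that threshold (0 of 478), beside a background of 85.7% positive and 0.0029% negative over all stop variants. Of the 478 members, 3 had no deposited adjusted p and could not be called. The authors' deposited table of EJC-independent variants had 274 of 356 members (77.0%) with such a positive and 0 with a negative response, beside 84.8% and 0.0104%. The shares were also compared at like depth. Between mean counts of 50 and 100, 83.3% of EJC-enhanced members were called positive, against 83.7% of other stop variants, and 72.2% of EJC-independent members, against 74.0%. From 100 to 250 the EJC-enhanced shares were 87.4% and 93.5%, and the EJC-independent shares 94.1% and 93.8%. At the lowest counts, 10 to 50, they were 49.3% and 53.9% (EJC-enhanced) and 38.7% and 36.4% (EJC-independent). From 250 to 1000 they were 100% and 97.0% (EJC-enhanced) and 100% and 99.8% (EJC-independent). At 1000 or more, 2 of 3 EJC-enhanced and 24 of 24 EJC-independent members were called positive.

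The mean response of members was 2.23 (SD 0.85, n = 478 variants) for the EJC-enhanced reporter, a ratio of 4.70, beside 2.29 over all stop variants. For the EJC-independent reporter it was 1.67 (SD 0.67, n = 356 variants), a ratio of 3.19, beside 1.72. Negative responses, none of them called, were found in 7 EJC-enhanced and 5 EJC-independent members. The share of negative responses over all stop variants was not counted. The middle of the distribution lay well above 0: its quartiles were 1.78 and 2.70 for the EJC-enhanced reporter, and 1.31 and 1.98 for the EJC-independent reporter. Where the count was 250 or more, the SD over members was 0.56 (n = 49) in the EJC-enhanced table, with a median SD of 0.51 over the other last codons. It was 0.28 (n = 106), beside 0.30, in the EJC-independent table.

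The same sequences without a stop codon had responses near 0. The 192 controls with tryptophan as last codon averaged 0.02 (SD 0.70) in the EJC-enhanced table and the 129 EJC-independent ones -0.07 (SD 0.81). Of the EJC-enhanced controls, 6 were called positive and 3 negative in the authors' deposited table, beside 2.76% positive and 1.37% negative over all controls. The EJC-independent controls had 4 positive and 7 negative in the authors' deposited table, beside 4.09% and 4.03%. Matched by bases 1 to 6 and base 10, stop variants exceeded their controls by 2.13 in the EJC-enhanced table (95% interval 1.95 to 2.31 over 59 penultimate codons, all 59 positive, 424 pairs). The EJC-independent difference was 1.70 (1.53 to 1.88, all of 44 codons positive, 235 pairs). These intervals, and those that follow, describe the spread between sequences within the same libraries, not between cultures, and are not adjusted for their number.

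By stop codon, the difference from the control in the EJC-enhanced table was 2.14 before TGA, 2.16 before TAA and 2.26 before TAG. The EJC-independent differences were 1.84 (1.60 to 2.07) before TGA, 1.57 (1.39 to 1.76) before TAA and 1.56 (1.31 to 1.81) before TAG. TGA stood above the others in this reporter. Within matched sequences, TGA exceeded TAA by 0.31 (0.06 to 0.56) with a higher mean in 33 of 41 penultimate codons, and TGA exceeded TAG by 0.31 (0.01 to 0.62) in 21 of 34. With no count minimum, TGA minus TAG was 0.26 (-0.05 to 0.58), and as a median 0.21 (-0.04 to 0.67). TAA minus TAG was -0.03 (-0.24 to 0.17). None of the 3 intervals excluded 0 in the EJC-enhanced table, where TGA minus TAA was 0.11 (-0.11 to 0.33), TGA minus TAG 0.06 (-0.16 to 0.28) and TAA minus TAG -0.14 (-0.45 to 0.16).

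The order of stop codons was not shown to be particular to tryptophan. In a least-squares fit to all stop variants of the EJC-independent table, TGA minus TAA was 0.25 after tryptophan and 0.15 averaged over the other last codons, a difference of 0.10 (SE 0.09, Benjamini-Hochberg adjusted p = 0.893 over 183 terms). The adjusted p was 0.934 for TGA minus TAG. In the EJC-enhanced fit the adjusted p was 0.989 for TGA minus TAA and 0.955 for TGA minus TAG.

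Set beside the other aromatic amino acids, tryptophan gave a larger response in the EJC-independent reporter, where those codons were among the lowest of all. In the whole-table fit, tryptophan ranked 38 of 61 last codons from the top at -0.05 relative to the others, TTC 55 (-0.24), TTT 58 (-0.26), TAC 60 (-0.29) and TAT 61 (-0.34). Variants that share the penultimate codon, the stop codon and base 10 differed by 0.27 between tryptophan and the mean of the 4 phenylalanine and tyrosine codons (95% interval 0.12 to 0.42, 354 contexts). The mean difference was positive in 47 of 60 penultimate codons. The EJC-enhanced reporter had -0.07 (-0.17 to 0.04, 478 contexts), with 24 of 61 penultimate codons positive. Weighting variants by the inverse of their squared SE lowered the EJC-independent difference to 0.15 (0.08 to 0.23). The codons differ in depth: the EJC-independent median count was 109 for tryptophan, 168 for TAT, 283 for TAC, 294 for TTT and 578 for TTC. Members averaged 1.75 at counts of 10 to 50 and 1.61 at 250 to 1000, beside 1.69 and 1.71 for all other stop variants. The aromatic codons were not split by depth.

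Each aromatic codon showed the EJC-independent difference. Tryptophan exceeded TAT by 0.34 (0.18 to 0.50), TTC by 0.30 (0.16 to 0.44), TAC by 0.30 (0.06 to 0.53) and TTT by 0.23 (0.10 to 0.37). The whole-table fit gave 0.29 against TAT (adjusted p = 1.4e-07), 0.19 against TTC (9.6e-05), 0.24 against TAC (6.9e-06) and 0.21 against TTT (3.6e-05), with Benjamini-Hochberg adjustment over 60 codons. Over all variants of a codon, the mean EJC-independent response was 1.67 for tryptophan, 1.39 for TAT, 1.44 for TAC, 1.47 for TTT and 1.50 for TTC. The mean EJC-enhanced response was 2.23 for tryptophan, 2.29 for TAT, 2.31 for TAC, 2.31 for TTT and 2.23 for TTC. The EJC-enhanced fit gave adjusted p-values of 0.26 for TAC, 0.281 for TTT, 0.386 for TAT and 0.943 for TTC.

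The mean difference over the 4 aromatic codons had an interval above 0 with each stop codon in the EJC-independent table: 0.38 (0.22 to 0.53) before TGA, 0.18 (0.02 to 0.33) before TAA and 0.22 (0.02 to 0.43) before TAG. Taken by amino acid, the interval included 0 for phenylalanine before TAA (0.13, -0.03 to 0.29) and for tyrosine before TAG (0.19, -0.09 to 0.46). TGA less the other stop codons was 0.15 (-0.06 to 0.36), so a dependence on the stop codon was not resolved. In the EJC-enhanced table it was -0.14 before TGA, -0.14 before TAA and 0.01 before TAG, with intervals that include 0. In the 424 EJC-enhanced contexts with controls it was -0.14 (-0.27 to -0.01), an interval below 0, and -0.16 (-0.36 to 0.03) once each variant's control was subtracted. After the same subtraction, the EJC-independent difference was 0.16 (-0.06 to 0.37, 233 contexts). The same 233 contexts gave 0.32 (0.15 to 0.50) unsubtracted. The controls alone differed by -0.02 (-0.19 to 0.15, 129 contexts) between tryptophan and the aromatic codons. Those 129 contexts are weighted otherwise than the 233, so this value is not the one that entered the subtraction. Both values of the 233 contexts use the same variants and weights. The change from 0.32 to 0.16 is therefore the difference between tryptophan and the aromatic codons among the matched controls there. No interval was computed for it.

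Against the other 60 last codons together, the contrast of tryptophan was small in both tables. The whole-table contrast was -0.06 in the EJC-enhanced table (-0.14 to 0.02, Benjamini-Hochberg adjusted p = 0.462), rank 54 of 61 from the top. In the EJC-independent table it was -0.05 (-0.13 to 0.03, adjusted p = 0.277). The EJC-independent value passed the threshold on the low side in better counted data: it was -0.08 (adjusted p = 0.0295) with a minimum count of 50 and -0.10 (adjusted p = 0.00203) with inverse variance weights. The median over penultimate codons of the matched difference from the other codons was 0.04 (-0.09 to 0.10). Tryptophan differed from 29 of the 60 codons in the EJC-independent fit (48.3%), being above 13 and below 16. In the EJC-enhanced fit it differed from 0 of the 60 (0%), with 10 at an unadjusted p below 0.05. Many codons stood apart in the EJC-independent fit. Against the mean of the others, 37 of the 61 last codons passed there, and 2 of the 61 in the EJC-enhanced fit. Tryptophan was in neither set. The number of differing pairs was not counted for other last codons.

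The 7 sense codons that differ from TGG at a single base were compared with it in the same matched contexts. Relative to glycine GGG, tryptophan was lower by 0.50 in the EJC-independent table (-0.68 to -0.31, adjusted p = 6.1e-17 in the whole-table fit). Of the codons that share their first bases with TGG, the cysteine codon TGT was exceeded by 0.21 (0.04 to 0.39, adjusted p = 0.00132), while the median over penultimate codons was 0.18 (-0.05 to 0.35). The other cysteine codon, TGC, gave 0.10 (-0.04 to 0.24). The remaining matched differences had intervals that include 0: 0.20 from arginine AGG, 0.07 from arginine CGG, 0.14 from leucine TTG and -0.07 from serine TCG. For TGC and TCG the fit over all variants passed its threshold where the matched interval did not, with 0.11 (adjusted p = 0.0486) and -0.17 (adjusted p = 0.000859). In the EJC-enhanced table the 7 matched differences ran between -0.05 and 0.15, with intervals that include 0. Over the 7 codons the mean difference was -0.03 (-0.13 to 0.08) in the EJC-enhanced and 0.05 (-0.07 to 0.17) in the EJC-independent table.

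The base after the stop codon gave no resolved effect among members. In the EJC-enhanced table, a base set against the others at bases 1 to 9 held fixed gave 0.01 for A, 0.06 for C, -0.02 for G and -0.05 for T, with every interval including 0. The EJC-independent values were -0.08 for A, 0.05 for C, 0.19 (-0.06 to 0.45) for G and -0.11 for T, again with intervals that include 0. In the EJC-independent fit the effect of G was 0.14 after tryptophan and -0.01 over the other last codons. That is the highest G effect of the 61 codons, but the adjusted p was 0.944 over 244 terms.

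The penultimate amino acid divided members unevenly. Among EJC-enhanced members the lowest means were 1.74 (SE 0.57, n = 5) after tryptophan, 1.85 (SE 0.20, n = 27) after isoleucine and 1.95 (SE 0.36, n = 11) after asparagine. The highest were 2.65 (SE 0.30, n = 5) after methionine, 2.44 (SE 0.15, n = 26) after valine and 2.41 (SE 0.38, n = 4) after glutamate. Among EJC-independent members the lowest were 1.26 (SE 0.11, n = 36) after arginine, 1.36 (SE 0.22, n = 10) after aspartate and 1.43 (SE 0.21, n = 12) after glycine. Asparagine at 2.26 (SE 0.17, n = 2), histidine at 1.99 (SE 0.19, n = 19) and tyrosine at 1.92 (SE 0.17, n = 14) were highest there. No extreme amino acid of one reporter was at the same end in the other.

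Arginine and histidine had the largest EJC-independent departures, by unadjusted p, from what the additive fit gives. With other last codons the EJC-independent mean was 1.57 after arginine and 1.63 after histidine, against 1.26 and 1.99 with tryptophan. The members' residuals were -0.27 (SE 0.11, adjusted p = 0.454) for arginine and 0.39 (SE 0.15, adjusted p = 0.389) for histidine, with Benjamini-Hochberg adjustment over the 1215 cells of the table. In neither reporter did any of the 20 tryptophan cells pass. At an unadjusted p below 0.05 there were 1 in the EJC-enhanced table (isoleucine, residual -0.37, adjusted p = 0.474) and 2 in the EJC-independent table (arginine and histidine).

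Grouping penultimate codons by how many of their bases are G or C, a split chosen after the members' values were seen, gave an ordered series in each table. With 0, 1, 2 and 3 such bases, EJC-enhanced members averaged 1.83 (SE 0.17, n = 43), 2.23 (SE 0.07, n = 162), 2.28 (SE 0.06, n = 192) and 2.33 (SE 0.08, n = 81). Variants with other last codons stayed between 2.26 and 2.30. EJC-independent members ran the other way, at 1.84 (SE 0.11, n = 33), 1.78 (SE 0.06, n = 115), 1.63 (SE 0.05, n = 149) and 1.47 (SE 0.09, n = 59), while other last codons stayed between 1.71 and 1.75. With 0, 1, 2 and 3 such bases, the tryptophan controls of the EJC-enhanced table had 0.15, 0.08, -0.07 and 0.04, with SEs of 0.07 to 0.20. Those of the EJC-independent table had -0.07, -0.22, -0.0022 and 0.07, with SEs of 0.11 to 0.15. The part of the controls in the series was not tested beyond the subtraction given next.

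The slope per G or C, less the mean slope of the other last codons, was 0.12 (SE 0.04) in the EJC-enhanced table, rank 2 of 61 from the top. It was -0.12 (SE 0.04) in the EJC-independent table, the lowest of the 61. Since the split was prompted by these values, the slopes are a description and no test is given. With a minimum count of 100 they were 0.04 (SE 0.07), rank 12, for the EJC-enhanced and -0.07 (SE 0.03), rank 57, for the EJC-independent reporter, so tryptophan was no longer at the end. At that minimum the EJC-enhanced means were 2.45, 2.20, 2.37 and 2.34, no longer in order, and the EJC-independent means 1.83, 1.64, 1.58 and 1.54. After subtraction of controls the slope was 0.16 (SE 0.08) in the EJC-enhanced and -0.16 (SE 0.09) in the EJC-independent table.

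Turning the codon order had no resolved effect. Sequences with tryptophan last and another codon before it were set against the same codons exchanged. The difference was 0.01 (-0.20 to 0.21, 371 pairs) in the EJC-enhanced and 0.06 (-0.17 to 0.29, 231 pairs) in the EJC-independent table. With inverse variance weights the EJC-independent value was -0.15 (-0.27 to -0.04), of the opposite sign and with an interval that excludes 0.

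Between reporters, the response over the own control was larger in the EJC-enhanced reporter. Both tables were normalized apart, so each sequence was taken less its own control in its table. The EJC-enhanced difference exceeded the EJC-independent one by 0.47 (0.07 to 0.87, 206 sequences), with 30 of 42 penultimate codons positive. The same matched value was not computed for other last codons. Unmatched, all stop variants averaged 2.29 in the EJC-enhanced and 1.72 in the EJC-independent table, and all controls 0.03 and -0.02. The aromatic difference over the 288 contexts found in both tables was 0.01 (-0.17 to 0.18) in the EJC-enhanced and 0.29 (0.12 to 0.47) in the EJC-independent reporter. Their difference was -0.29 (-0.51 to -0.06), but -0.09 (-0.32 to 0.14) with a minimum count of 50.

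Of the 290 members used in both tables, 227 had the larger response in the EJC-enhanced table, where their mean was 2.36, against 1.67 in the EJC-independent table. Over all stop variants of each table the means were 2.29 and 1.72, so a larger EJC-enhanced mean was not particular to tryptophan. The share with the larger EJC-enhanced response was not counted for other last codons. As a description, Pearson's r between the tables was -0.02 over the 290 members and -0.04 over the 116 with a mean count of 100 or more in both. Over all 26171 stop variants in both tables r was 0.0085. The points share their sequences and, within a table, their libraries.

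The members at the ends of the distribution, among those with a mean count of 100 or more, are shown to give the width of single measurements, with the last codon in capitals.
Low in both tables: ttgTGGtaac
EJC-enhanced, low: ttaTGGtagc
EJC-enhanced, low: tcaTGGtgaa
EJC-enhanced, high: ctgTGGtagc
EJC-enhanced, high: ctgTGGtaaa
EJC-enhanced, high: cgtTGGtaac
EJC-independent, low: gccTGGtgat
EJC-independent, low: cttTGGtagt
EJC-independent, high: ataTGGtaga
EJC-independent, high: tcgTGGtaag
EJC-independent, high: cacTGGtaaa

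At the low end of the EJC-enhanced table, ttgTGGtaac had a response of -0.11 (SE 0.94), ttaTGGtagc -0.01 (SE 0.84) and tcaTGGtgaa 0.0008 (SE 0.87). At its high end, ctgTGGtagc had 4.28 (SE 1.14), ctgTGGtaaa 4.04 (SE 0.60) and cgtTGGtaac 3.92 (SE 0.63). Leucine codons precede tryptophan at both ends. In the EJC-independent table, gccTGGtgat was lowest at 0.43 (SE 0.45), followed by ttgTGGtaac at 0.78 (SE 0.50) and cttTGGtagt at 0.82 (SE 0.43). The highest were ataTGGtaga at 2.58 (SE 0.29), tcgTGGtaag at 2.50 (SE 0.53) and cacTGGtaaa at 2.43 (SE 0.55). The TAA sequence ttgTGGtaac was among the lowest in both tables, while the other low members were low in 1 table only. In the EJC-independent table ttaTGGtagc had 2.00 (SE 0.42) and tcaTGGtgaa 3.61 (SE 0.88). In the EJC-enhanced table gccTGGtgat had 2.29 (SE 0.46) and cttTGGtagt 2.67 (SE 0.52). The highest of the EJC-enhanced table, ctgTGGtagc, had 1.59 (SE 0.07) at a mean count of 6367 in the EJC-independent table.

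Tryptophan in both codons was found in 5 stop variants of each table. The sequence found in both tables with TGA and C, tggTGGtgac, had 2.65 (SE 0.72) in the EJC-enhanced and 2.60 (SE 1.32) in the EJC-independent table. With TAA and T, tggTGGtaat had -0.51 (SE 0.77) in the EJC-enhanced and 2.83 (SE 0.66) in the EJC-independent table. The other 3 EJC-enhanced responses were between 1.97 and 2.33, with SEs from 1.12 to 1.39. The other 3 EJC-independent responses were 1.79 for tggTGGtaag, 1.59 for tggTGGtgag and 0.30 for tggTGGtgaa. Their lowest mean counts were 14.8 in the EJC-enhanced and 14.0 in the EJC-independent table. The controls with TGG in all 3 codons had 0.50 (SE 0.54) in the EJC-enhanced table for tggTGGtggt, against -0.56 (SE 1.02) in the EJC-independent table, where tggTGGtggg had 0.83 (SE 0.76).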

How the data were processed

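RNA from HEK293T cells with 2 reporter libraries was compared between SMG1i and DMSO, with 3 libraries per treatment and reporter. For each reporter the authors deposited a table that compares the treatments variant by variant. Per the file headers, a row holds the mean normalized count over libraries (a signal, already scaled by the authors), the log2 fold change and its standard error, the Wald score, the p-value and the adjusted p-value, deposited as the authors computed them. The submitters' processing notes name DESeq and DESeq2, with no version. The assignment of reads to variants was not stated in them. No value per library was used, so p-values of single variants are the authors' and precision is given by the deposited standard errors. The deposited mean counts sum to 18874316 for the EJC-enhanced and 31033950 for the EJC-independent reporter.

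The sign of the log2 fold change was reversed. If the numerator were the other treatment, all signs would turn. A mean normalized count of at least 10 was required. Matched differences were averaged per penultimate codon, and the mean is given with its 95% t interval over penultimate codons. A least-squares fit to all stop variants of a table used stop codon, base 10, penultimate codon and last codon as terms, with variances clustered on the 6 random bases and Benjamini-Hochberg adjustment over 61 codons, 60 pairs, 183 stop terms or 244 base terms. Cells of last codon by penultimate amino acid hold too few windows for clustered variances, so variances within and between windows pooled over the table were used, unlike the written design. The fit was run on simulated responses as a check of the code, with additive effects and independent noise of the size of the deposited standard errors. That check does not show how far the intervals hold for the real data. Alternatives were no count minimum, a minimum of 50, inverse variance weights, medians, plain means over contexts, subtraction of matched controls and leaving out tryptophan at the penultimate codon. Python 3.11.15, numpy 2.4.6, pandas 2.3.3 and scipy 1.17.1 were used.

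Sequences named in the text are, per stop codon, the matched context with the highest lowest count, the 3 highest and 3 lowest members per table at a count minimum of 100, and members with tryptophan in both codons. The highest and lowest 3 penultimate amino acids, each stop codon and base 10, and the aromatic and neighbour codons are named too. The members and lists were chosen with earlier results of these data known. Sequences were taken from the deposited tables.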

Additional observations from a re-analysis of the deposited data

Results flagged for a closer look

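Both results that set the reporters against each other had an interval of the difference that excludes 0. The response of tryptophan stop variants over their own controls was larger in the EJC-enhanced than in the EJC-independent reporter by 0.47 on the log2 scale (95% interval 0.07 to 0.87, 206 sequences, 30 of 42 penultimate codons positive). It was not shown to be particular to tryptophan. All stop variants averaged 2.29 (EJC-enhanced) and 1.72 (EJC-independent), and all controls 0.03 and -0.02. The difference between tryptophan and the 4 other aromatic codons, EJC-enhanced less EJC-independent, was -0.29 (-0.51 to -0.06, 288 contexts). However, it was -0.09 (-0.32 to 0.14) with a minimum count of 50 and -0.08 (-0.19 to 0.04) with inverse variance weights. Both were tested over sequences of the same libraries, so the error between cultures was not tested.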

How the results depend on the processing

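The response of tryptophan stop variants over their controls, the excess of TGA over TAA in the EJC-independent reporter and the larger response over controls in the EJC-enhanced reporter kept their direction and an interval that excludes 0 under the alternatives run for them. The EJC-independent aromatic difference did so except after control subtraction, where it was 0.16. Of the alternative values with a threshold, 291 kept direction and side of it, 9 newly passed it, 12 no longer passed it, and 48 changed sign. Of these 48, 47 had intervals that include 0 both ways, so their direction is not resolved at this depth, and the exception is the exchange of codon order with inverse variance weights. Causes were not tested.

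With a minimum count of 50, tryptophan against the other 60 codons was -0.082 (EJC-independent) and the reporter difference of the aromatic contrast -0.090. EJC-enhanced signs turned for the aromatic mean (0.037), TTC (0.068), TAC (0.070), the neighbours TTG (0.015) and TGC (0.017), the mean of the 7 neighbours (0.022), TGA minus TAG (-0.10), base 10 A (-0.16), C (-0.11), G (0.19) and T (0.19), and codon order (-0.094). EJC-independent signs turned for AGG (-0.13), TAA minus TAG (0.073), base 10 A (0.078) and C (-0.10), and codon order (-0.018).

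With inverse variance weights, tryptophan against the other codons was -0.10 (EJC-independent) and the reporter difference of the aromatic contrast -0.076. EJC-enhanced signs turned for TTC (0.021), TCG (0.025), the mean of the 7 (0.037) and base 10 T (0.0014). EJC-independent signs turned for CGG (-0.021), TTG (-0.012), the mean of the 7 (-0.061), TAA minus TAG (0.00028), base 10 A (0.024), C (-0.095) and T (0.019), and codon order (-0.15).

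With medians, the reporter difference of the aromatic contrast was -0.15 and EJC-independent TGA minus TAG 0.21. The EJC-enhanced sign turned for TGC (0.029), and EJC-independent signs for the other 60 codons (0.040), CGG (-0.025), TAA minus TAG (0.13), base 10 A (0.022) and C (-0.092), and codon order (-0.068). With plain means over contexts, signs turned for EJC-enhanced base 10 A (-0.024), and for EJC-independent mean of the 7 (-0.0049), TAA minus TAG (0.00053), base 10 C (-0.026) and codon order (-0.066).

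After control subtraction, signs turned for EJC-enhanced CGG (-0.21) and TGT (-0.033), and for EJC-independent CGG (-0.058), TTG (-0.10), TCG (0.0041), TGC (-0.11) and the mean of the 7 (-0.018). With no count minimum, EJC-independent TGA minus TAG was 0.26. The G or C slope moved by more than its SE with minimum counts of 50 (EJC-enhanced 0.024) and 100 (EJC-enhanced 0.036, EJC-independent -0.071) and with inverse variance weights (EJC-enhanced 0.067, EJC-independent -0.075). Leaving out tryptophan at the penultimate codon changed no sign and no call. The alternatives for the slope were chosen after seeing the data.

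No paired analysis was possible because the tables hold no values per library. For the same reason no replicate was left out and no other size factors or count tests were run.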
